A study of Equus caballus with 12 samples.

Results

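The microRNAs (miRNAs) miR-126-5p, miR-221 and miR-222, all linked to blood vessels, were followed across the heart, lung and liver of the horse. They were chosen by name: every entry of the deposited table called eca-miR-126, eca-miR-221 or eca-miR-222, with any arm suffix, was taken, which gave eca-miR-126-5p, eca-miR-221 and eca-miR-222, or 3 of the 294 known horse miRNAs and of the 629 entries in all. The 12 small RNA libraries came from 4 healthy Polish cold-blooded stallions aged 1 to 2 years (horses 27, 30, 32 and 34), with 1 library each from the left ventricle, the caudal lobe of the right lung and the right lobe of the liver. The tissues were taken at slaughter. All values are bulk levels of whole tissue, in which fewer cells of a type and less RNA per cell cannot be told apart.

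miRNAs are short RNAs that lead a silencing complex to messenger RNAs and lower their output, mostly through a few bases near the 5′ end called the seed. miR-126 is the best known miRNA of endothelial cells, the lining of blood vessels. It is made from an intron of EGFL7, a gene of the same cells, and in mice its 5p arm sustains the renewal of endothelium by repressing the Notch ligand gene Dlk1. miR-221 and miR-222 share a seed and are made as a cluster. In human endothelial cells they repress the receptor gene KIT and dampen vessel formation, and in smooth muscle and many tumour cells they repress the cell cycle inhibitor gene CDKN1B. They are therefore not restricted to endothelium.

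In the RefSeq gene table for the horse assembly TB-T2T, MIR126 lay inside EGFL7. MIR221 and MIR222 were next to each other with no other annotated gene between them, and LOC138921979 overlapped MIR222 in this assembly. This assembly is not the one named in the study's methods (EquCab3.0), so it served only for names and neighbours. The reads in the table came to 8113895 to 9355513 per heart library, 3536536 to 7560746 per lung library and 3066869 to 8595569 per liver library. These totals were derived from the smallest value in each library and the minimum of 6 reads given in the study's methods. Levels are given as normalized counts, which are reads divided by a DESeq2 size factor for each library. The tissue labels were checked on miRNAs of the main cell types. The 6 striated muscle miRNAs summed to at least 5460419 normalized counts in each heart library and at most 12572 elsewhere. The 4 hepatocyte miRNAs summed to at least 1343168 in each liver library and at most 280526 elsewhere. That highest sum elsewhere, in the lung of horse 32, held 278539 of miR-148a. miR-122 alone was at 948651 or more in each liver library and at most 3116 elsewhere.

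miR-126-5p was among the most abundant miRNAs of all 3 tissues and was highest on average in lung. In lung it was at 416232, 344051, 668930 and 312538 normalized counts in horses 27, 30, 32 and 34. In heart it was at 142420, 254874, 279738 and 551535 in the same order. In liver it was at 171543, 140207, 106849 and 149808. Every lung library thus lay above every liver library, whereas the heart libraries spread from the liver range up into the lung range. The heart of horse 34 was above 3 of the 4 lung libraries, and the heart of horse 27 was below the liver of the same horse.

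The means were 435438 ± 161600 in lung (SD, n = 4 horses), 307142 ± 173536 in heart and 142102 ± 26910 in liver. Heart libraries differed up to 3.87-fold among the horses, lung libraries 2.14-fold and liver libraries 1.61-fold. As a share of the reads of known miRNAs, miR-126-5p took 9.52 ± 2.55% in lung, 2.48 ± 0.942% in heart and 2.79 ± 0.271% in liver. The order of heart and liver is therefore not the same on the 2 scales. By rank among the 294 known miRNAs, which does not depend on the scaling, it stood at 2 to 3 in the lung libraries, 5 to 12 in heart and 8 to 10 in liver.

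miR-221 was far lower, and its order of tissues was lung, then liver, then heart. The 4 lung libraries were at 16504, 14100, 9648 and 19686 normalized counts in horses 27, 30, 32 and 34. The liver libraries were at 7979, 8031, 6490 and 3738. The heart libraries were at 1713, 1571, 1861 and 1659. No value of one tissue reached into the range of another, and the heart libraries were the closest to each other.

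Means of miR-221 were 14985 ± 4230 in lung (SD, n = 4), 6559 ± 2012 in liver and 1701 ± 122 in heart. Its share of known miRNA reads was 0.344 ± 0.133% in lung, 0.132 ± 0.0438% in liver and 0.0148 ± 0.00329% in heart. It ranked between 30 and 44 in lung, 41 and 65 in liver and 79 and 89 in heart.

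miR-222 followed the same order at lower levels. In lung it was at 5671, 3059, 2746 and 3926 normalized counts in horses 27, 30, 32 and 34. In liver it was at 1613, 2053, 1424 and 819, and in heart at 275, 352, 373 and 426. The 3 tissues again did not overlap. The lowest of these values, in the heart of horse 27, rested on a read count with an exact Poisson 95% interval of 193 to 252, which covers counting error only. The means were 3851 ± 1312 in lung (SD, n = 4), 1477 ± 512 in liver and 357 ± 62.6 in heart, and the ranks 60 to 71, 81 to 100 and 115 to 135.

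**Figure D1:**
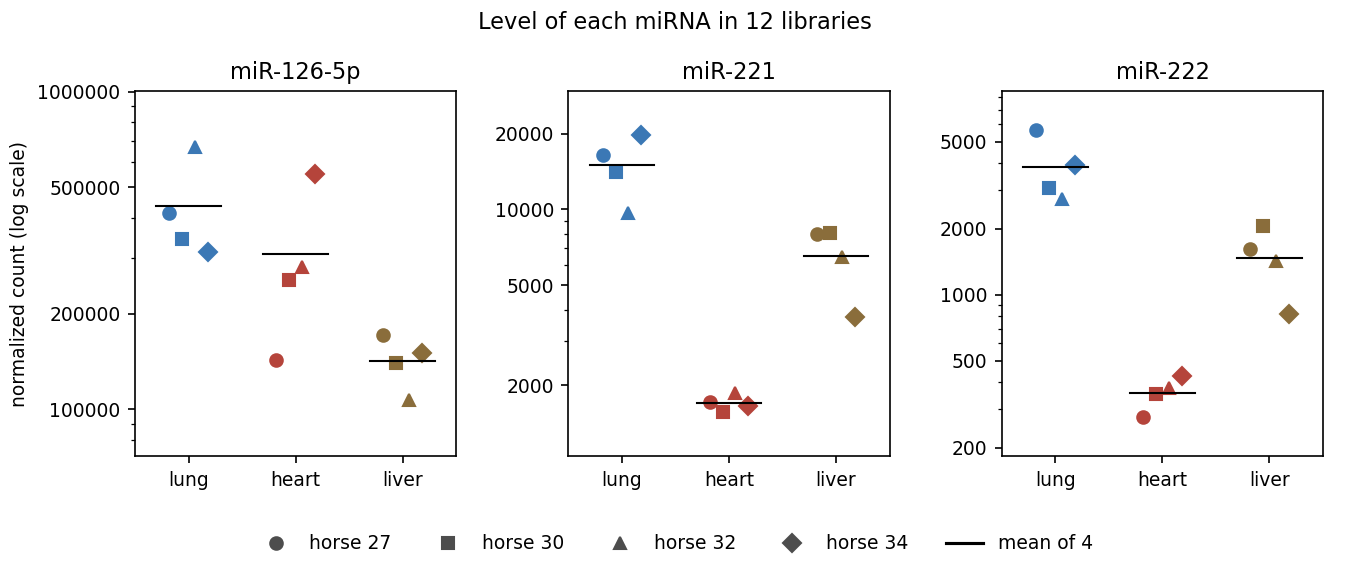
Level of miR-126-5p, miR-221 and miR-222 (y axis, normalized count on a log scale) in lung, heart and liver (x axis). Points are libraries, markers tell the 4 horses apart, and the bar is the mean of 4. miR-221 and miR-222 fall into 3 separate ranges, with heart at 1571 to 1861 and 275 to 426, while the heart libraries of miR-126-5p run from 142420 to 551535.

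Within a tissue, the horses did not rank alike for the 3 miRNAs. Horse 34 had the highest miR-221 in lung and the lowest in liver. Horse 32 had the highest miR-126-5p in lung and the lowest miR-221 and miR-222 there. The SD between horses within tissues on the log2 scale was 0.40 for miR-221, 0.45 for miR-222 and 0.57 for miR-126-5p, against a median of 0.57 over the 256 miRNAs tested. Tissue held 93.2% of the sum of squares of miR-221, 92.8% of that of miR-222 and 63.5% of that of miR-126-5p, with a median of 73.2% over all tested.

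The comparison of lung and heart asked which miRNAs part these tissues. miR-221 and miR-222 were called higher in lung and miR-126-5p was not. The test was limma on log2(normalized count + 1), with a fit of all 12 libraries. Calls needed a Benjamini-Hochberg adjusted p below 0.05 together with a fold minimum of 1 on the log2 scale, up or down. For miR-221 the mean was 8.81-fold higher in lung and limma put the log2 fold change at 3.09 ± 0.28 (standard error; adjusted p = 2.69e-06, limma). For miR-222 the mean was 10.8-fold higher, with a log2 fold change of 3.39 (standard error 0.31, adjusted p = 3.4e-06, limma). Both were higher in lung in 4 of 4 horses, by 5.18 to 11.9-fold and 7.36 to 20.6-fold. Of all 256 miRNAs tested, 38.7% were called in either direction, 19.5% were called higher in lung and 44.5% had groups that did not overlap.

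For miR-126-5p the mean was 1.42-fold higher in lung than in heart. The log2 fold change was 0.60 with a 95% interval of -0.21 to 1.42 (adjusted p = 0.205, limma), an interval that holds 0 as well as the fold minimum. It was higher in lung in 3 of 4 horses, by 2.92-fold in horse 27, 1.35-fold in horse 30 and 2.39-fold in horse 32, and at 0.567 of the heart level in horse 34. Without the libraries of horse 34 the log2 fold change was 1.08 and it was called (adjusted p = 0.037, limma).

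The call in this comparison changed with the scaling between libraries. With each library rescaled to the same total of known miRNAs (CPM) the log2 fold change of miR-126-5p in lung over heart was 1.99 (adjusted p = 3.62e-05, limma). The rescaling also moved the median of all 256 miRNAs by 1.08, and the calls over all of them went from 50 higher and 49 lower in lung to 124 and 15. Relative to the median, miR-126-5p was at 0.60 with the size factors and 0.91 with CPM. With the striated muscle and hepatocyte miRNAs left out of the total, its log2 fold change was 0.79 (adjusted p = 0.0211, limma), below the fold minimum. miR-221 and miR-222 were called higher in lung under each of these scalings.

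In lung against liver, all 3 miRNAs were called higher in lung. miR-126-5p was 3.06-fold higher by its mean, with a log2 fold change of 1.57 (standard error 0.37, adjusted p = 0.00351, limma). miR-221 was 2.28-fold higher (log2 fold change 1.21, standard error 0.28, adjusted p = 0.00307, limma). miR-222 was 2.61-fold higher (log2 fold change 1.40, standard error 0.31, adjusted p = 0.00259, limma). Each of the 3 was higher in lung in 4 of 4 horses, and none overlapped between the tissues. Of the 256 miRNAs tested, 51.6% were called in either direction, 25% were called higher in lung and 52.7% had groups that did not overlap.

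Single horses weighed on the size of these differences. In horse 32, miR-126-5p was 6.26-fold higher in lung than in liver, against 2.09 to 2.45-fold in the other horses, and without horse 32 it was not called (log2 fold change 1.21, adjusted p = 0.0515, limma). In horse 34, miR-221 was 5.27-fold higher, against 1.49 to 2.07-fold in the others. Without horse 34 its log2 fold change was 0.81 (adjusted p = 0.0167, limma), and without the liver of horse 34 alone 0.96 (adjusted p = 0.00694), both under the fold minimum. With the striated muscle and hepatocyte miRNAs left out of the total, miR-221 was at 0.86 (adjusted p = 0.0557, limma). miR-222 was called in each of these settings.

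In heart against liver, miR-221 and miR-222 were called lower in heart, while the mean of miR-126-5p was higher there. miR-221 in heart was at 0.259 of its liver mean (log2 fold change -1.89, standard error 0.28, adjusted p = 0.000125, limma). miR-222 was at 0.241 of its liver mean (log2 fold change -1.99, standard error 0.31, adjusted p = 0.000201, limma). Both were lower in heart in 4 of 4 horses. Of the 256 miRNAs tested, 46.9% were called in either direction, 27% were called lower in heart and 52.3% had groups that did not overlap.

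miR-126-5p had a mean 2.16-fold higher in heart than in liver, which limma put at 0.97 on the log2 scale (adjusted p = 0.0467), just under the fold minimum, so it was not called. With the horse as a block the adjusted p was 0.0799. Heart was higher in 3 of 4 horses, by 1.82-fold in horse 30, 2.62-fold in horse 32 and 3.68-fold in horse 34. Without the heart of horse 27 it was called (log2 fold change 1.28, adjusted p = 0.00712, limma), and without the heart of horse 34 the log2 fold change was 0.63 (adjusted p = 0.115). With CPM values the sign turned, at -0.25 (adjusted p = 0.423, limma), where the median of all miRNAs moved by -1.01 and the calls over all of them went from 51 higher and 69 lower in heart to 26 and 138. Relative to the median of all miRNAs, miR-126-5p in heart over liver was at 1.20 with the size factors, 0.99 with CPM and 1.12 with the striated muscle and hepatocyte miRNAs left out of the total, so that it stood above the median on all 3.

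**Figure D2:**
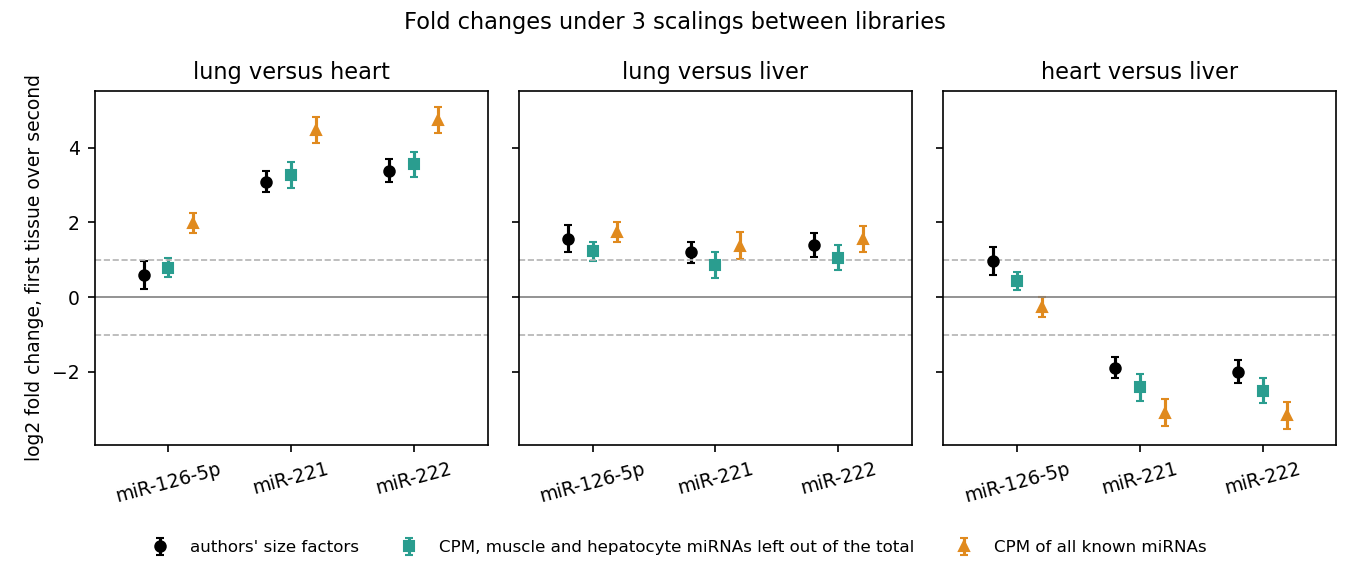
Log2 fold change of the first tissue over the second (y axis) for the 3 miRNAs (x axis) in 3 comparisons. Each point is the estimate from limma with its standard error as a bar, color and marker tell the scaling between libraries, and dashed lines mark the fold minimum of 1. miR-126-5p in heart over liver lies at 0.97 with the size factors and at -0.25 with CPM, while miR-221 and miR-222 keep their sign in all panels.

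Because miR-221 and miR-222 are neighbours in the genome, their ratio was read within each library, where the scaling cancels out. There were 3.90 to 6.24 counts of miR-221 for each count of miR-222 in the heart libraries, 2.91 to 5.01 in those of lung and 3.91 to 4.95 in those of liver. The ranges of the 3 tissues overlapped. In single libraries the lowest ratio was in the lung of horse 27 and the highest in the heart of the same horse. The mean log2 ratio was 2.27 ± 0.29 in heart (SD, n = 4), 1.97 ± 0.36 in lung and 2.16 ± 0.14 in liver. The differences were -0.30 for lung over heart, -0.19 for lung over liver and 0.10 for heart over liver, and none passed an exact two-sided permutation test (adjusted p = 0.514, 0.6 and 0.686 over 9 ratio comparisons). Their levels had differed by 3.09 and 3.39 on the log2 scale between lung and heart. Ligation of adapters favours some miRNAs over others, so a ratio between 2 miRNAs is one of read counts and not of molecules.

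**Figure D3:**
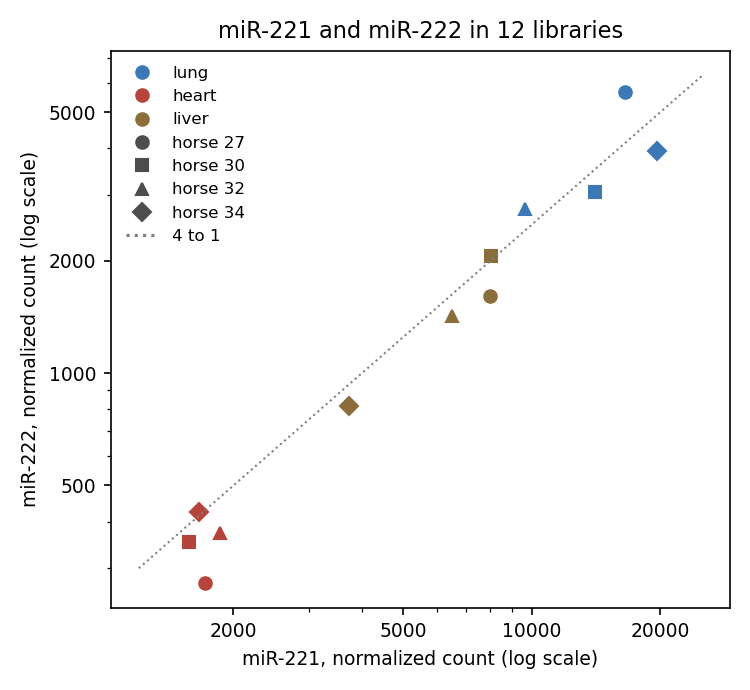
Normalized counts of miR-221 (x axis) and miR-222 (y axis) in the 12 libraries, both on log scales. Color gives the tissue and marker the horse, and the dotted line marks 4 counts of miR-221 for each count of miR-222. The heart libraries lie at the lower end, the liver libraries in the middle and the lung libraries at the upper end, all near the line.

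The ratio of miR-126-5p to the cluster set heart apart. In heart there were 83.1, 162, 150.3 and 332 counts of miR-126-5p for each count of miR-221 in horses 27, 30, 32 and 34. In lung there were 25.2, 24.4, 69.3 and 15.9, and in liver 21.5, 17.5, 16.5 and 40.1. Every heart library lay above every library of the other tissues, and lung and liver overlapped. For miR-222 in place of miR-221, the heart libraries had ratios of 518 to 1296, the lung libraries 73.4 to 244 and the liver libraries 68.3 to 183.

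On the log2 scale, the ratio of miR-126-5p to miR-221 was lower in lung than in heart by a difference of -2.49 and higher in heart than in liver by 2.85. With miR-222 the differences were -2.78 and 2.96. Each of these had an exact two-sided permutation p = 0.0286, the smallest that 4 against 4 libraries allow, and an adjusted p = 0.0643 over the 9 ratio comparisons, which does not pass 0.05. The direction held in 4 of 4 horses in each case. Between lung and liver the differences were 0.36 and 0.17, with an exact permutation p = 0.543 and 0.686 and the same adjusted p = 0.686.

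**Figure D4:**
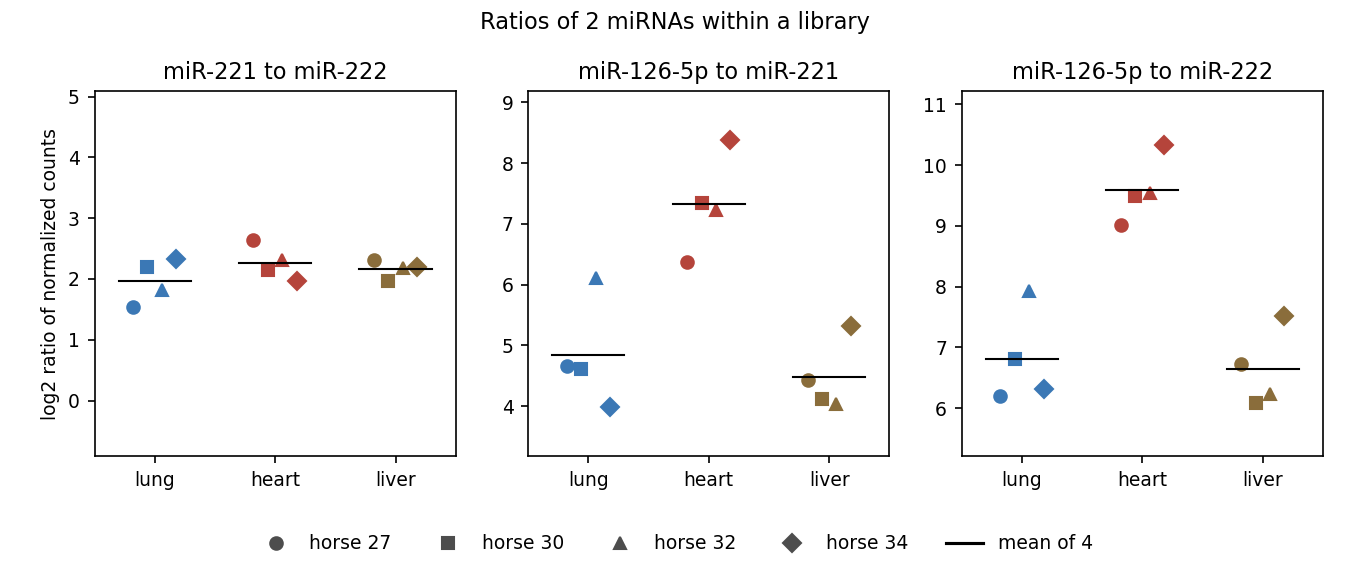
Log2 ratio of 2 miRNAs within a library (y axis) in lung, heart and liver (x axis), for the 3 pairs. Each point is a library, with a marker for each horse, the bar is the mean of 4, and each y axis spans 6 units of log2. The ratio of miR-221 to miR-222 stays between 1.54 and 2.64 in all libraries, while the heart libraries stand above the others in both ratios with miR-126-5p.

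Likeness to other miRNAs was measured by Pearson's r of log2(normalized count + 1) over the 12 libraries, given as a description because the libraries share 3 tissues and 4 horses. Of all miRNAs tested, miR-221 and miR-222 were the closest to each other, at r = 0.985. Next to both were miR-200a (0.965 to miR-221 and 0.946 to miR-222), miR-141 (0.953 and 0.945), miR-96 (0.946 and 0.930) and miR-200b (0.942 and 0.944). miR-200a, miR-200b and miR-141 belong to the miR-200 family of epithelial cells, and miR-96 to a cluster known from sensory cells. The mean of miR-200a (SD, n = 4) was 19100.5 ± 7282 in lung, 2631 ± 576 in liver and 187 ± 90.6 in heart, again with no overlap, and miR-141 and miR-96 were listed at 0 in every heart library. With CPM values miR-222 and miR-200a were still the first and second neighbours of miR-221, at r = 0.992 and 0.977, while miR-141 and miR-96 fell back to ranks 35 and 27.

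The miRNAs nearest to miR-126-5p were others. They were miR-151-5p (r = 0.886), which comes from an intron of the focal adhesion kinase gene PTK2 in human, miR-25 (0.845), miR-218 (0.834), miR-27a (0.809) and miR-1180 (0.795). miR-151-5p was at 13782, 19695, 26660 and 71742 normalized counts in the hearts of horses 27, 30, 32 and 34, with the horses in the same order as for miR-126-5p. In the lungs it was at 27420, 34766, 37019 and 15118, also with horse 32 highest and horse 34 lowest. In the livers it was at 12319, 13205, 8446 and 15357, where horse 34 was highest and miR-126-5p had horse 27 highest, with horse 32 lowest for both. To miR-126-5p, miR-222 had r = 0.244 and miR-221 r = 0.156, or 0.743 and 0.697 with CPM values, and on both scales miR-151-5p was nearer. With CPM values miR-151-5p had rank 3, and miR-25, miR-218, miR-27a and miR-1180 had ranks 14, 10, 11 and 12, so only miR-151-5p stayed among the nearest 5.

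Only a few tested miRNAs had the same pattern of calls. Of the 256, 13 (5.08%) were called in all 3 comparisons in the order of lung, liver and heart, and miR-221 and miR-222 were 2 of them. Another 9 (3.52%), miR-126-5p among them, were called higher in lung than in liver and in neither other comparison. These counts use the size factors and all 12 libraries. Under some of the other settings given above, miR-126-5p and miR-221 left these patterns.

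To set the 3 miRNAs beside others of vessels, a list of 21 miRNAs linked to endothelium or vessel growth was used, of which 20 stood in the table and 19 could be tested. In lung over liver, 8 were called higher and 2 lower, with a median log2 fold change of 1.05 against 0.08 for all tested. Of all 256 miRNAs, 25% were called higher and 26.6% lower in that comparison. In lung over heart, 4 were higher and 2 lower (19.5% and 19.1% of all tested), with a median of 0.82 against 0.00. In heart over liver, 7 were higher and 4 lower (19.9% and 27% of all tested), with a median of 0.70 against -0.23. With CPM values the counts in these 3 comparisons were 8 and 1, 15 and 0, and 3 and 7, where those over all 256 miRNAs were 70 and 65, 124 and 15, and 26 and 138. The shifts of the median given above, 1.08 in lung over heart and -1.01 in heart over liver, are part of every CPM value of the list.

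The 3 members of the list with the highest mean were miR-27b, miR-24 and miR-92a. miR-27b and miR-24 are made from clusters with miR-23 that are rich in endothelial cells. miR-27b was at 219974, 287748, 234480 and 220525 normalized counts in the hearts of horses 27, 30, 32 and 34. Its lung libraries ran from 128950 to 165932 and its liver libraries from 35758 to 50245. Heart was above lung and lung above liver, with no overlap. Its log2 fold change was 1.72 in lung over liver (adjusted p = 4.03e-06, limma) and 2.46 in heart over liver (1.36e-07). In lung over heart it was -0.74, or 0.64 with CPM values, which is below the shift of 1.08 in the median. In heart over liver it fell to 1.25 with CPM values and was still called.

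miR-24 ran from 116877 to 136535 in the heart libraries, from 92915 to 138728 in the lung libraries and from 19321 to 29058 in the liver libraries. Lung and heart overlapped, and both were above liver, by log2 fold changes of 2.12 (adjusted p = 1.88e-06, limma) and 2.34 (3.95e-07). miR-24 was called higher in lung than in heart with CPM values (1.16). In heart over liver it fell to 1.13 with CPM values and was still called. miR-92a is known to curb vessel growth in mice. In these tissues it was at 17212 to 35277 in lung, 29874 to 38633 in heart and 34050 to 43499 in liver and was not called in any of the 3 comparisons, with log2 fold changes of -0.36, -0.56 and -0.20 for lung over heart, lung over liver and heart over liver. With CPM values it was called in lung over heart (1.03) and in heart over liver (-1.41). On that scale the median of all miRNAs itself stood at 1.08 and -1.24 in these comparisons.

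Among the rest of the list, miR-23a, miR-23b, miR-27a and miR-218 were called higher than liver in both lung and heart. They are named after their values were seen. With CPM values these 4 were called in lung over liver and not in heart over liver, where the median of all miRNAs moved by -1.01. No member of the list was called in the order of lung, liver and heart that miR-221 and miR-222 had. The 4 called lower in heart than in both other tissues were miR-10a, miR-19b, miR-424 and miR-503, also named after their values were seen. The most abundant of them, miR-10a, was at 36819 ± 11430 in lung (SD, n = 4), 48429 ± 10737 in liver and 5343 ± 4000 in heart. Its log2 fold changes were 3.01 for lung over heart and -3.44 for heart over liver (adjusted p = 0.000221 and 4.88e-05, limma), while lung and liver differed by -0.43 (adjusted p = 0.472). miR-19b had -0.37 in lung over liver (adjusted p = 0.669, limma), and miR-424 was called lower in lung than in liver (-1.24, adjusted p = 0.022). In horses 27, 30, 32 and 34, miR-19b was at 366, 743, 730 and 3261 in lung and at 329, 453, 257 and 130 in heart. Its lung and heart libraries thus overlapped, and the lung of horse 34 was far above the rest (adjusted p = 0.0409 in lung over heart, limma).

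**Figure D5:**
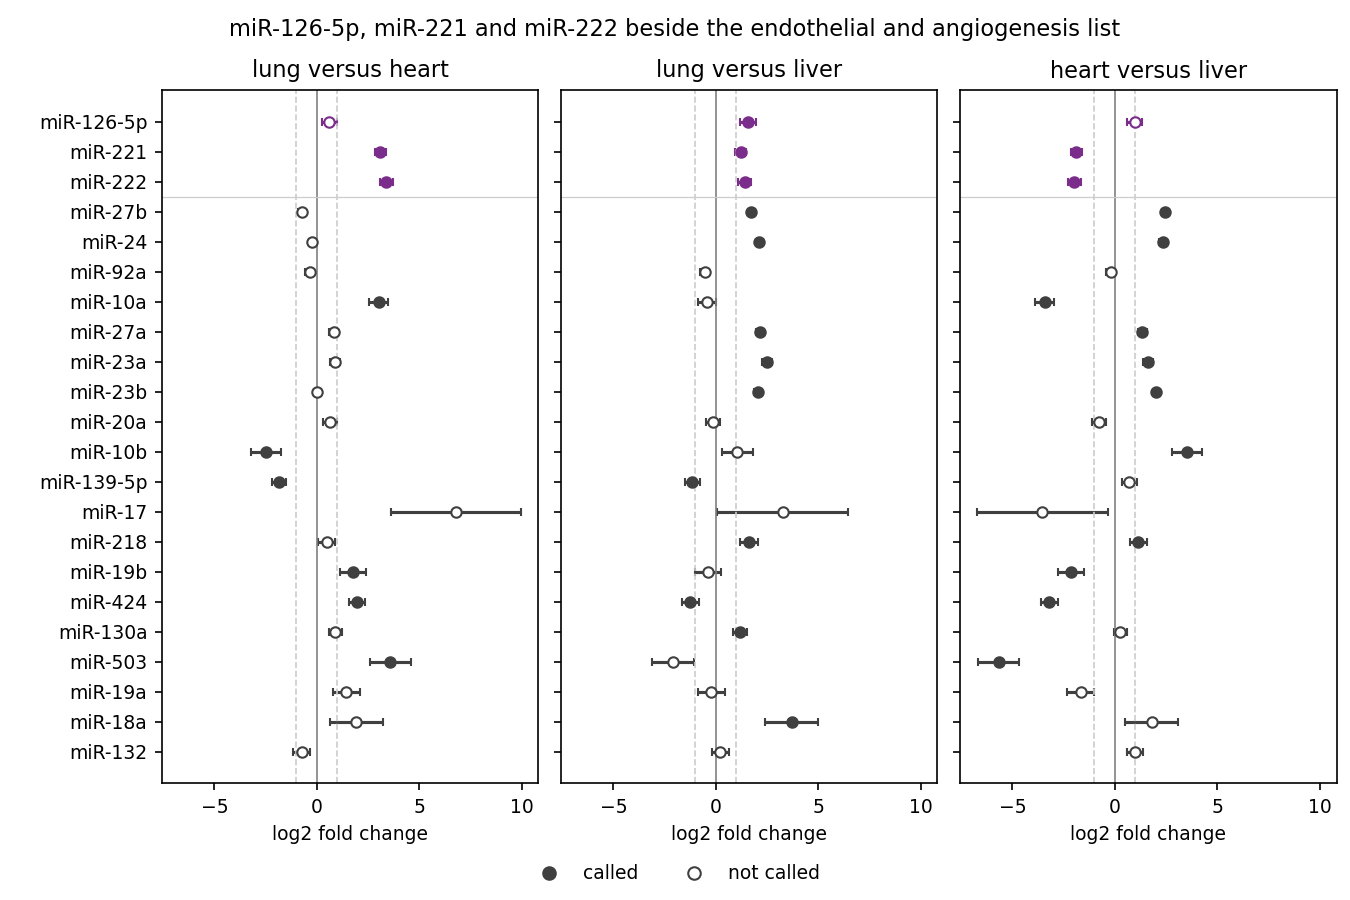
Log2 fold change (x axis, limma estimate with its standard error as a bar) of miR-126-5p, miR-221 and miR-222 and of the 19 tested miRNAs of the endothelial and angiogenesis list (y axis, by falling mean level) in 3 comparisons. Filled points were called and open points were not. In heart over liver, miR-221 and miR-222 lie at -1.89 and -1.99, where miR-27b and miR-24 lie at 2.46 and 2.34.

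Other cell types also moved with the tissues. The 6 epithelial miRNAs summed to 66725 to 83600 normalized counts in lung, 5369 to 7500 in liver and 317 to 1008 in heart. The sum had the order of miR-221 and miR-222, and miR-141 was at 0 in every heart library. Of the 6, 5 were called lower in heart than in liver. The other, miR-205, was low in both and not called, at means of 26.0 in heart and 8.56 in liver. The 4 of 6 leukocyte miRNAs in the table summed to 29537 to 88114 in lung, 12200 to 21542 in liver and 7926 to 9759 in heart. Within that sum, miR-146a was at means of 45409.5, 12787 and 3255 in lung, liver and heart, while miR-150 was at 9073, 765 and 3519, higher in heart than in liver. miR-155 was at 3051, 774 and 733 in the same order. miR-142-5p was at 4285, 1152 and 1497, with values of 0 in the lungs of horses 32 and 34 and the livers of horses 27, 30 and 32. It was at 11310 and 5832 in the lungs of horses 27 and 30 and at 4607 in the liver of horse 34. Its lung and liver means thus rest on these libraries. A 0 can stand for fewer than 6 reads. The 4 of 5 smooth muscle and mesenchyme miRNAs summed to 266744 to 396395 in lung, 361147 to 454021 in heart and 167164 to 302441 in liver. The 2 of 3 red blood cell miRNAs summed to 25239 to 66840 in lung, 66906 to 160133 in heart and 4150 to 6888 in liver, nearly all of it miR-486-5p. miR-144 was at 0 in all 4 heart libraries, 3 of 4 lung libraries and 2 of 4 liver libraries. The part of these cell types in the levels of miR-126-5p, miR-221 and miR-222 was not tested.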

How the data were processed

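Small RNA libraries of heart, lung and liver from 4 horses (12 libraries) were sequenced, and the values came from a single deposited table. By the study's methods, the authors trimmed reads with Trim Galore, counted them with sRNAbench against miRBase and EquCab3.0 at a minimum of 6 reads and used DESeq2. The submitters' processing notes instead list Trimmomatic and BWA beside bcl2fastq, FastQC and DESeq2, and which of these made the table is not stated. The deposited values are a signal, counts that the authors divided by a DESeq2 size factor per library. Other deposited columns hold the authors' comparison (log2 fold change, a score, p-values and a mean) and were not used. Within each library, 100% of values above 0 were whole multiples (within 0.01) of the lowest one divided by 6. The shallowest libraries were the liver of horse 27 and the lung of horse 34.

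A known miRNA was tested if 4 or more libraries held 10 or more normalized counts of it, which left 256 of 294. The log2 of the value plus a pseudocount of 1 was fitted by limma (version 3.58.1, R version 4.3.3), with a trend in the variance and a mean per tissue. Ratios were compared with an exact permutation test in Python 3.11.15 with scipy 1.17.1. The fit was tested on simulated data. Named were the members, the 5 miRNAs most like each, and, of the endothelial and angiogenesis list, the 3 with the highest mean and any called like miR-221 in all comparisons. Other members of the endothelial and angiogenesis list were picked with their values in view, and the text says so. Single miRNAs named from the lists of other cell types were also picked with their values in view. The members and lists were chosen with earlier results of these data known. The same number is the same animal, so the horse numbers pair the samples. Deviations from tissue means correlated at -0.27 to 0.15 in the 12 pairs of libraries of the same horse (median -0.057) and -0.27 to 0.36 in the 36 of different horses. The horse as a block, other pseudocounts (0.5 and 10), filters, scalings and entries, and each horse and library left out were alternatives. Count tests and TMM scaling were not run, since whole reads could not be read from the values without the stated minimum. No miRNA sequences were at hand, so arms are as named in the table. The other arm of miR-126 was not analysed here.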

Additional observations from a re-analysis of the deposited data

How the results depend on the processing

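Of 502 values under alternatives, 482 kept direction and threshold side, or stayed within 1.5 times for a count. Some of them could not change: fits without a third-tissue library keep the estimate, and some ratio tests cannot pass 0.05. With CPM, miR-126-5p was called in lung over heart (log2 fold change 1.99) and its sign turned in heart over liver (-0.25). The median of all miRNAs moved by 1.08 and -1.01 there. Relative to it, miR-126-5p was at 0.60 with size factors and 0.91 with CPM in the first, and at 1.20 and 0.99 in the second. CPM raised the called miRNAs of the endothelial and angiogenesis list in lung over heart from 6 to 15. No fold minimum raised them to 10 and also called miR-126-5p in heart over liver (0.97). With striated muscle and hepatocyte miRNAs left out of the total, miR-221 in lung over liver was at 0.86 and no longer called. The cause of these changes was not tested. With the horse as a replicate block no call of the 3 miRNAs changed, the calls over all miRNAs went from 99 to 97 in lung over heart, 132 to 131 in lung over liver and 120 to 116 in heart over liver, and those of the list in lung over heart from 6 to 5. miR-126-5p kept log2 fold changes of 0.60, 1.57 and 0.97 (adjusted p = 0.256, 0.0112 and 0.0799, limma). An exact within-horse sign-flip test of the ratios gave adjusted p = 0.281 or higher. With 4 horses this test cannot reach p below 0.05, nor can the permutation test with 3, so neither could decide whether the ratios differ.

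With a horse or a library left out, miR-126-5p ranged from 0.29 to 1.08 in lung over heart, 1.21 to 1.74 in lung over liver and 0.63 to 1.38 in heart over liver, with adjusted p from 0.0327 to 0.556, 0.000979 to 0.0515 and 0.00712 to 0.162 (limma). It was called in lung over heart without horse 34 (1.08), lost in lung over liver without horse 32 (1.21), and called in heart over liver without horse 27 (1.38) or its heart library (1.28). miR-221 ranged from 2.94 to 3.33, 0.81 to 1.42 and -2.14 to -1.73, and miR-222 from 3.06 to 3.56, 1.11 to 1.67 and -2.34 to -1.80. miR-221 in lung over liver fell under the fold minimum without horse 34 (0.81) or its liver library (0.96), with adjusted p from 0.00132 to 0.0173 over all these fits (limma). Called miRNAs of the list ranged from 4 to 8, 6 to 11 and 9 to 13, with 6 in lung over liver without horse 32. Log2 ratios in lung over liver ranged from -0.21 to 0.93 for miR-126-5p to miR-221, where the sign turned without horse 32 (-0.21) or its lung library (-0.06). For miR-126-5p to miR-222 they ranged from -0.34 to 0.63 and turned without horse 32 (-0.34), its lung library (-0.20), horse 30 (-0.01) or its liver library (-0.01). For miR-221 to miR-222 in heart over liver they ranged from -0.0195 (without the heart of horse 27) to 0.21. In lung and heart alone without the heart of horse 34, chosen after seeing the data, miR-126-5p was at 0.94 (adjusted p = 0.082, limma).

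Count tests (edgeR and DESeq2) and TMM scaling were not run. The 4 horses per tissue limit the precision. Depth was not the limit for miR-126-5p, with at least 92727 reads in each library.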
